A study of Rattus norvegicus with 22 samples.

Results

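The 4 ligands of the epidermal growth factor family chosen here (Egf, Tgfa, Hbegf and Areg), the ErbB receptors Egfr, Erbb2, Erbb3 and Erbb4, and hepatocyte growth factor (Hgf) with its receptor Met were followed in the kidneys of 22 male PKD/Mhm (Cy/+) rats. These 10 genes were chosen by name, by their Entrez identifiers, from the 17334 genes listed for each rat. All 10 were listed in every rat, and all 10 passed the filter on low counts that left 12867 genes for testing.

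PKD/Mhm (Cy/+) rats develop polycystic kidneys and are heterozygous for a missense mutation of Anks6, the gene of SamCystin. All 22 rats carried it, and no rat without the mutation was compared. The untreated group held 6 rats (animal numbers 1, 12, 18, 22, 23 and 24). A further 6 rats received human adipose-derived stromal cells (ASC) i.p. (5, 6, 7, 15, 16 and 17), 6 received ASC i.v. (3, 8, 9, 10, 13 and 14), and 4 received the medium conditioned by such cells, ASC-derived CM (2, 11, 19 and 21). All rats were 8 months old, and those of the treated groups had been treated monthly for 6 months. The route of the medium differs between the sources and is not used here, and the ABCB5+ groups and the other CM rats were not analysed here. A single library of total RNA from the left kidney was made per rat, so each value is an average over all cells of a piece of kidney. The p-values rest on the spread between rats, which here also holds differences between pieces and between libraries. The total count per rat ran from 12454983 to 14552261 in the untreated group, from 12444227 to 13959331 in the i.p. ASC group, from 12195682 to 14734772 in the i.v. ASC group and from 12291823 to 13913888 in the CM group.

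Ligands of the EGF family are made as membrane-anchored precursors, and proteases such as Adam17 cut the active part free. Egfr binds EGF, TGF-alpha, HB-EGF and amphiregulin, Erbb3 and Erbb4 bind neuregulins, and Erbb2 has no known ligand of its own and works as the partner of the other ErbB receptors. HGF is secreted as an inactive chain, mostly by mesenchymal cells, and after cleavage acts on Met, a receptor of epithelia. In kidney, Egf mRNA is known for its high level in the thick ascending limb and the distal convoluted tubule, and the growth of cyst epithelium in polycystic disease has long been linked with this family of ligands and receptors.

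The markers of kidney tissue were present in the libraries. Umod, of the thick ascending limb, had a mean of 2210 TPM, and Slc34a1, a phosphate transporter of the proximal tubule, a mean of 782 TPM. TPM, the usual per-length scale, is a count divided by transcript length and scaled to the library, and it is the scale on which different genes are compared below. None of the listed markers of 14 cell types and states was at 0 in all 22 rats. Several libraries stood apart in their markers. The summed level of the urothelial markers, of which Psca was the most abundant, was 373, 638 and 245 TPM in i.v. ASC rats 3, 9 and 13, and 7.35 to 39.9 TPM in the other 19 rats. The summed podocyte markers ran from 67.5 to 419 TPM, and the mean log2 CPM of these markers was below 5 in 5 rats (i.v. ASC rats 3, 9 and 13 and CM rats 2 and 11) and above 5.5 in the other 17. Red blood cell markers reached 4720 TPM in untreated rat 23. In a piece of tissue, fewer cells of a type and less RNA per cell cannot be told apart.

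Across the 22 rats Egf was far above the other genes. Its mean was 348 ± 118 TPM (SD, n = 22), and its lowest value lay above the highest value of Erbb2, the next gene, at 32.6 ± 4.30 TPM. Met followed at 29.1 ± 6.01 TPM, Erbb3 at 21.5 ± 4.79 TPM and Hbegf at 13 ± 3.21 TPM. Erbb2 was above Met in 18 of 22 rats, Met above Erbb3 in 22 and Erbb3 above Hbegf in 20, and the ranges of these neighbours overlapped. The lower part of the order began at Tgfa with 4.22 ± 0.945 TPM, after a gap, since every rat had more Hbegf than any rat had Tgfa. Egfr had 3.91 ± 1.09 TPM, Areg 2.60 ± 1.24 TPM, Erbb4 2.33 ± 0.781 TPM and Hgf 1.74 ± 0.616 TPM. Tgfa was above Egfr in 13 of 22 rats and Areg above Erbb4 in 9, so these neighbours could not be ordered beyond their spread. Summed over the 10 EGF family ligands measured, Egf made up 88.3% ± 3.30 (SD, n = 22) of the TPM, Hbegf 3.65%, Nrg1 3.25%, Btc 2.28%, Tgfa 1.17% and Areg 0.695%. Of the ErbB receptor TPM, Erbb2 made up 54.4% ± 5.74, Erbb3 35.4% ± 5.37, Egfr 6.47% ± 1.48 and Erbb4 3.79% ± 1.09 (SD, n = 22).

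**Figure D1:**
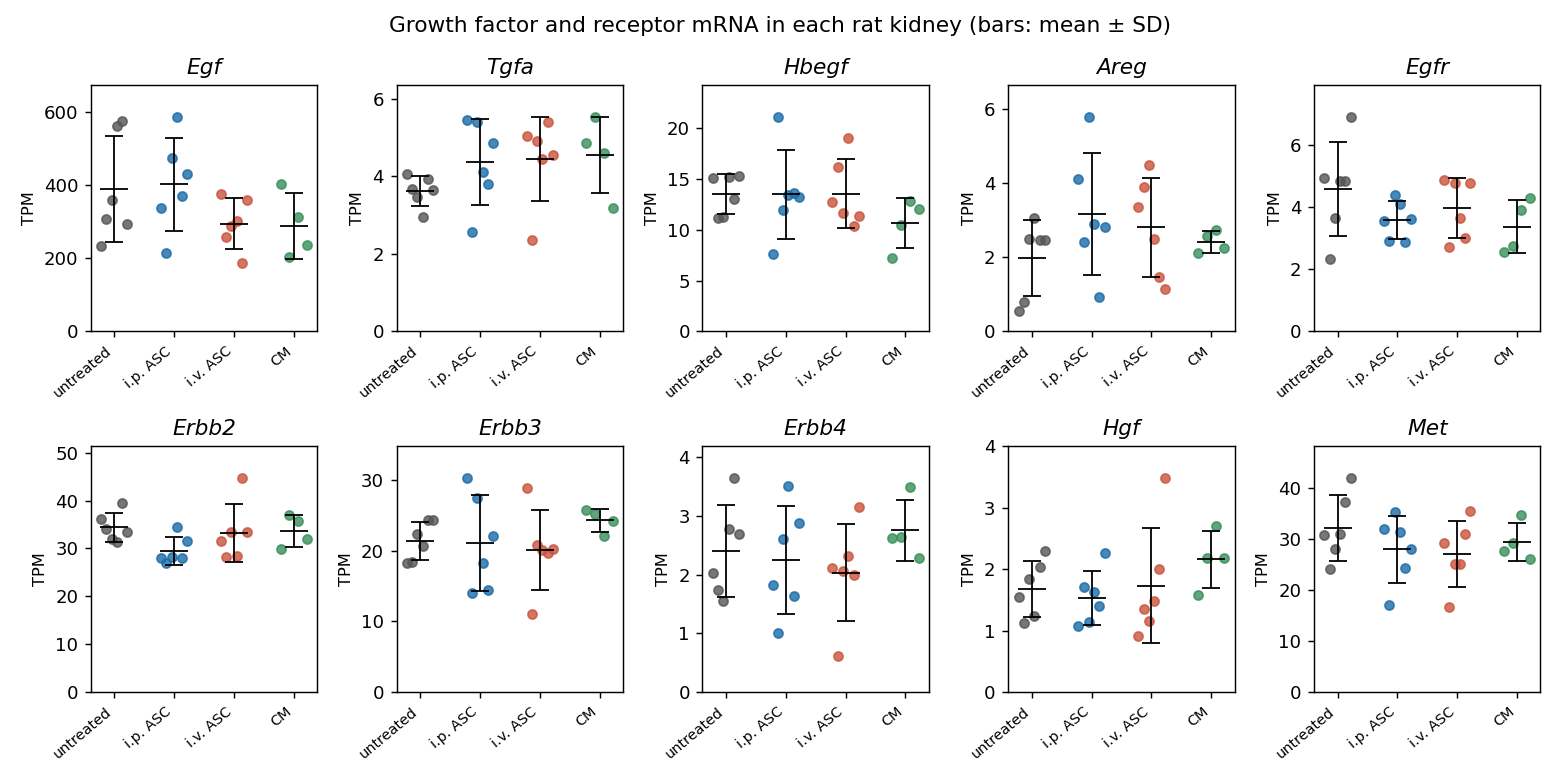
Level of each gene in every rat, in TPM on a linear axis from 0, by group (untreated, i.p. ASC, i.v. ASC, CM). Points are rats and the black bars are mean ± SD; the groups overlap in all 10 genes, and Areg has its lowest values, 0.551 and 0.801 TPM, in untreated rats 1 and 12.

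Whether a treatment moved these genes was tested against the untreated group on the counts, over all 12867 genes. At an adjusted p below 0.05 (edgeR, quasi-likelihood, Benjamini-Hochberg), 0 of the 10 genes were called after i.p. ASC, i.v. ASC or CM. The background was the same, with 0 of 12867 genes (0.0%) called in each comparison. At an unadjusted p below 0.05 the same test passed 0 of the 10 genes after i.p. ASC (500 of all genes, 3.89%), 1 after i.v. ASC (1133, 8.81%) and 0 after CM (849, 6.6%). DESeq2 called 0 of the 10 genes in any comparison, against 0 (0.0%), 22 (0.171%) and 5 (0.0389%) of all genes. For any difference among the 4 groups edgeR called 11 of all genes (0.0855%), and none of them was among the 10, and at an unadjusted p below 0.05 it passed 529 (4.11%). The 3 comparisons share the untreated rats. No gene of the 10 had treated and untreated rats that did not overlap, where 0.14%, 0.179% and 1.42% of all genes had.

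Among the ligands, Egf encodes the precursor of epidermal growth factor. In untreated rats its lowest, median and highest values were 233, 333 and 577 TPM. They were 214, 401 and 586 TPM after i.p. ASC and 187, 295 and 374 TPM after i.v. ASC. After CM they were 202, 235, 314 and 402 TPM. Untreated rats 22 and 23 lay at 563 and 577 TPM, above every i.v. ASC and CM rat, and the other 4 untreated rats lay between 233 and 359 TPM, within the range of the treated rats. The log2 fold changes were 0.12 (standard error 0.24) after i.p. ASC, -0.28 (0.24) after i.v. ASC and -0.35 (0.28) after CM, and the adjusted p-values of these values by edgeR were 0.905, 0.621 and 0.834. The 95% interval of the CM value ran from -0.93 to 0.22. With 1 rat left out at a time, the values of Egf ran from 0.008 (without untreated rat 1) to 0.27 (without untreated rat 22) after i.p. ASC, from -0.40 (without untreated rat 1) to -0.13 (without untreated rat 22) after i.v. ASC and from -0.62 (without CM rat 2) to -0.20 (without untreated rat 22) after CM. Egf was listed with 8330 to 26333 counts per rat, so counting alone would give a coefficient of variation of 0.781%, against 33.9% between rats.

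Tgfa encodes transforming growth factor alpha, another ligand of Egfr. Its lowest, median and highest values were 2.95, 3.66 and 4.05 TPM in untreated rats, 2.55, 4.49 and 5.45 TPM after i.p. ASC and 2.36, 4.74 and 5.40 TPM after i.v. ASC. In the 4 CM rats Tgfa was at 3.19, 4.61, 4.86 and 5.53 TPM. Thus 4 of 6 i.p. ASC rats (3 of 6 in log2 CPM), 5 of 6 i.v. ASC rats and 3 of 4 CM rats were above every untreated rat, while rats 6 (i.p. ASC) and 8 (i.v. ASC) were below every untreated rat. As log2 fold changes, the differences were 0.36 (standard error 0.19) after i.p. ASC, 0.41 (0.19) after i.v. ASC and 0.41 (0.21) after CM. Unadjusted p-values were 0.0754, 0.0449 and 0.069, and after adjustment over all genes they were 0.771, 0.523 and 0.711 (edgeR). Beside these values, the group means of podocyte, distal convoluted tubule and endothelium markers were lower in every treated group than in untreated rats (not tested). Those of thick ascending limb and proximal tubule markers were higher in every treated group (not tested). The summed podocyte markers were 295 ± 97.8 TPM (SD, n = 6) in untreated rats, 219 ± 76.6 (n = 6) after i.p. ASC, 160 ± 106 (n = 6) after i.v. ASC and 186 ± 140 (n = 4) after CM. Those of the distal convoluted tubule were 1980 ± 448, 1520 ± 613, 1190 ± 488 and 1120 ± 594 TPM in the same order, and those of the thick ascending limb 2600 ± 759, 3350 ± 784, 3290 ± 1150 and 3610 ± 1830 TPM. The summed endothelium markers were 358 ± 53.7, 293 ± 109, 261 ± 103 and 299 ± 138 TPM. With the podocyte marker mean as a covariate the log2 fold changes of Tgfa were 0.24, 0.06 and 0.08. Without i.v. ASC rats 3, 9 and 13 that of i.v. ASC was 0.10. Both settings were added after the data were seen. Those rats had the highest Tgfa of their group, so leaving them out lowered that value. The podocyte marker mean itself varied with Tgfa over the rats (r = -0.727). What the mix of tissue contributed to the Tgfa values was not tested. Over all alternatives run, the i.p. ASC value of Tgfa ran from 0.128 to 0.46. The i.v. ASC value ran from 0.0629 to 0.528 and the CM value from 0.0842 to 0.551.

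Hbegf encodes heparin-binding EGF-like growth factor. The untreated rats, i.p. ASC rats and i.v. ASC rats ran, as lowest, median and highest value, at 11.2, 14.1 and 15.3 TPM, at 7.60, 13.3 and 21.1 TPM and at 10.4, 12.2 and 19.1 TPM. Those of the CM group had 7.24, 10.5, 12.1 and 12.8 TPM, of which the lower 2 were below every untreated rat. The highest value of all belonged to i.p. ASC rat 6, which had the lowest Tgfa of its group. Log2 fold changes of Hbegf were 0.09, 0.13 and -0.29 with standard errors of 0.19, 0.19 and 0.21 (adjusted p = 0.912, 0.776 and 0.816, edgeR), and the i.v. ASC value was 0.01 without rat 10 of that group. Over all alternatives run, the i.v. ASC value of Hbegf ran from -0.0163 to 0.311.

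Areg encodes amphiregulin and was the least precisely measured gene, at 6 to 55 counts per rat. Areg ran, as lowest, median and highest value, at 0.551, 2.46 and 3.04 TPM in untreated rats, 0.926, 2.85 and 5.77 TPM after i.p. ASC and 1.14, 2.92 and 4.47 TPM after i.v. ASC. After CM it was at 2.10, 2.24, 2.58 and 2.72 TPM. Untreated rats 1 and 12, at 0.551 and 0.801 TPM, were below every treated rat, and the other 4 untreated rats lay between 2.45 and 3.04 TPM. Its log2 fold changes were the largest of the 10 genes after i.p. and i.v. ASC, at 0.85 (standard error 0.43) and 0.65 (0.43), and 0.39 (0.48) after CM (adjusted p = 0.771, 0.545 and 0.916, edgeR). With 1 rat left out the values of Areg ran from 0.56 (without i.p. ASC rat 7) to 1.06, from 0.46 to 0.83 and from 0.19 (without untreated rat 1) to 0.52 (without untreated rat 22). The biological coefficient of variation was 47.2%, above that of 94.9% of the genes tested. Proximal tubule markers, with Slc34a1 the most abundant, were summed at 1930 ± 544 TPM (SD, n = 6) in untreated rats, 2870 ± 1770 (n = 6) after i.p. ASC, 2760 ± 1650 (n = 6) after i.v. ASC and 3320 ± 1430 (n = 4) after CM. Untreated rats 1 and 12, the lowest in Areg, had 990 and 1800 TPM, and the lowest sum of all was 981 TPM in i.p. ASC rat 16. With their mean as a covariate the log2 fold changes of Areg were 0.40, 0.43 and 0.03.

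The promoter sequences of the most abundant ligand, of the ligand with the smallest unadjusted p and of the ligand with the widest spread between rats are shown for context. RefSeq windows of the rat assembly GRCr8 were matched by symbol for 9 of the 10 genes, all but Erbb3. The 250 bases before the gene start are given 5′ to 3′ on the strand of the gene, for Egf at chr2:220976298-220976547 (minus strand), Tgfa at chr4:120175469-120175718 (plus strand) and Areg at chr14:17265642-17265891 (minus strand). Capitals mark matches, on either strand, to the TATA box letters TATAAA, the GC box letters GGGCGG, the CCAAT box letters CCAAT and the cAMP response element letters TGACGTCA.
Egf: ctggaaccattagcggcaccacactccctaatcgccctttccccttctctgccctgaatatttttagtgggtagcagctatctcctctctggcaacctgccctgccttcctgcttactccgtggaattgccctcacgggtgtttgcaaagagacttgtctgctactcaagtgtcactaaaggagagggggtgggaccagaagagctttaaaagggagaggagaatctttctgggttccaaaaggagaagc
Tgfa: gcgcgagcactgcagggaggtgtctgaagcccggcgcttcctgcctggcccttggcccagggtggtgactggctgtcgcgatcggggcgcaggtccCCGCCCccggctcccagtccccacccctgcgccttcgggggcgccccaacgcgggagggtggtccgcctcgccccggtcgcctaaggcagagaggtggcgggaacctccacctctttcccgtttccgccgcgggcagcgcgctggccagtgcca
Areg: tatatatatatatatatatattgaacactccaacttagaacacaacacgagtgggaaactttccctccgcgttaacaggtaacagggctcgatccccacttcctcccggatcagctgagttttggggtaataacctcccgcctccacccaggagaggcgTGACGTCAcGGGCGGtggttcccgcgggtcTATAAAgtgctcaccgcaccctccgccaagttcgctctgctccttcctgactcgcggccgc
The Areg window held TGACGTCA, GGGCGG and TATAAA, which did not overlap each other, the Tgfa window held GGGCGG on the opposite strand, and the Egf window held none of these letters. Of 33469 windows of the same length, 12.9% held TATAAA, 30.5% GGGCGG, 34.0% CCAAT and 1.59% TGACGTCA. Of the other 6 windows, those of Egfr, Erbb2 and Erbb4 held GGGCGG, those of Hbegf, Erbb2 and Hgf held CCAAT, and that of Met held none. A match describes letters only, and no binding was measured in these rats.

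Among the receptors, Egfr binds all 4 ligands above. Its lowest, median and highest values were 2.34, 4.83 and 6.88 TPM in untreated rats, 2.87, 3.58 and 4.37 TPM after i.p. ASC and 2.72, 4.20 and 4.87 TPM after i.v. ASC. Among CM rats it was at 2.56, 2.74, 3.88 and 4.29 TPM. Every treated rat lay within the range of the untreated rats, which held both the lowest value, in rat 12, and the highest, in rat 24. Against untreated rats the log2 fold changes were -0.25, -0.07 and -0.36 with standard errors of 0.19, 0.19 and 0.21 (adjusted p = 0.776, 0.897 and 0.737, edgeR), and the i.p. ASC value of Egfr was -0.13 without untreated rat 24.

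Erbb2, the ligand-less partner, was the steadiest of the 10 genes, with a coefficient of variation of 13.2% between rats. From lowest over median to highest it was at 31.3, 33.8 and 39.5 TPM in untreated rats, 26.9, 28.1 and 34.5 TPM after i.p. ASC and 28.1, 32.5 and 44.8 TPM after i.v. ASC. CM rats had 29.9, 32.1, 35.8 and 36.9 TPM. In the i.p. ASC group 4 of 6 rats were below every untreated rat in TPM, but 1 of 6 on the log2 CPM scale of the test, and i.v. ASC rat 13 was above every other rat. Differences from untreated rats were -0.13 (standard error 0.09), 0.06 (0.09) and 0.04 (0.10) on the log2 scale (adjusted p = 0.771, 0.774 and 0.98, edgeR). On the log2(TPM + 1) scale the i.v. ASC and CM values were -0.06 and -0.03.

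Erbb3, a receptor for neuregulins, had lowest, median and highest values of 18.3, 21.5 and 24.4 TPM in untreated rats, 14, 20.2 and 30.4 TPM after i.p. ASC and 11, 20.2 and 28.9 TPM after i.v. ASC. All 4 CM rats lay close together, at 22.1, 24.2, 25.3 and 25.8 TPM. In TPM the ASC groups reached both above and below the untreated range, with i.p. ASC rats 6 and 16 and i.v. ASC rat 8 below it and i.p. ASC rats 5 and 7 and i.v. ASC rat 3 above it. For Erbb3 the log2 fold changes were 0.08, 0.03 and 0.27 with standard errors of 0.20, 0.20 and 0.22 (adjusted p = 0.926, 0.957 and 0.843, edgeR), and the first 2 were below 0 on the log2(TPM + 1) scale, at -0.07 and -0.12. The group means of proximal tubule markers, with which Erbb3 varied between rats, were higher in each treated group than in untreated rats (not tested). With the mean of these markers as a covariate the log2 fold changes of Erbb3 were -0.17, -0.15 and 0.02, and with 1 surrogate variable -0.22, -0.30 and -0.005.

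Erbb4, the other neuregulin receptor, was listed with 26 to 136 counts per rat. Erbb4 was, from lowest over median to highest, at 1.55, 2.36 and 3.65 TPM in untreated rats, 1.01, 2.22 and 3.51 TPM after i.p. ASC and 0.609, 2.08 and 3.15 TPM after i.v. ASC. It was 2.28, 2.62, 2.64 and 3.50 TPM in the CM rats. The lowest values of all were those of i.v. ASC rat 8 and i.p. ASC rat 6, in TPM the only rats outside the untreated range, while in log2 CPM i.p. ASC rat 15 was above it. Log2 fold changes of Erbb4 were -0.007, -0.13 and 0.28 with standard errors of 0.27, 0.27 and 0.30 (adjusted p = 0.996, 0.85 and 0.89, edgeR).

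Hgf was the lowest of the 10 genes in TPM, at 23 to 76 counts per rat, though Areg had fewer counts. Lowest, median and highest values were 1.13, 1.69 and 2.30 TPM in untreated rats, 1.08, 1.51 and 2.26 TPM after i.p. ASC and 0.919, 1.41 and 3.48 TPM after i.v. ASC. Under CM the 4 rats had 1.57, 2.18, 2.18 and 2.70 TPM. The highest value belonged to i.v. ASC rat 14, in a group that also held the lowest, in rat 3. On the log2 scale Hgf differed from untreated rats by -0.03, 0.12 and 0.43 with standard errors of 0.24, 0.24 and 0.26 (adjusted p = 0.974, 0.839 and 0.741, edgeR). On the log2 CPM scale 3 of 4 CM rats were above every untreated rat, and in TPM 1 of 4. The group means of fibroblast and leukocyte markers were highest after CM too (not tested). The summed fibroblast markers were 658 ± 80.7 TPM (SD, n = 6) in untreated rats and 817 ± 379 (n = 4) after CM, and those of leukocytes 3900 ± 562 and 4330 ± 1560 TPM. Their part in the CM value was not tested. Its receptor Met had lowest, median and highest values of 24.1, 30.8 and 41.9 TPM in untreated rats, 17, 29.6 and 35.2 TPM after i.p. ASC and 16.6, 27.1 and 35.3 TPM after i.v. ASC. In CM rats it was 26.0, 27.5, 29.2 and 34.6 TPM. As with Erbb4, rats 6 (i.p. ASC) and 8 (i.v. ASC) were in TPM the only rats outside the untreated range of Met, both below it. In log2 CPM 2 of 6 i.p. ASC, 2 of 6 i.v. ASC and 1 of 4 CM rats were below that range and 1 of 6 i.p. ASC rats above it. The log2 fold changes of Met were -0.10, -0.14 and -0.05 with standard errors of 0.14, 0.14 and 0.16 (adjusted p = 0.867, 0.669 and 0.982, edgeR). They were -0.006 after i.p. ASC without rat 6 of that group and -0.05 after i.v. ASC without rat 8. Over all alternatives run, the values of Met reached -0.215 after i.p. ASC and -0.287 after i.v. ASC.

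**Figure D2:**
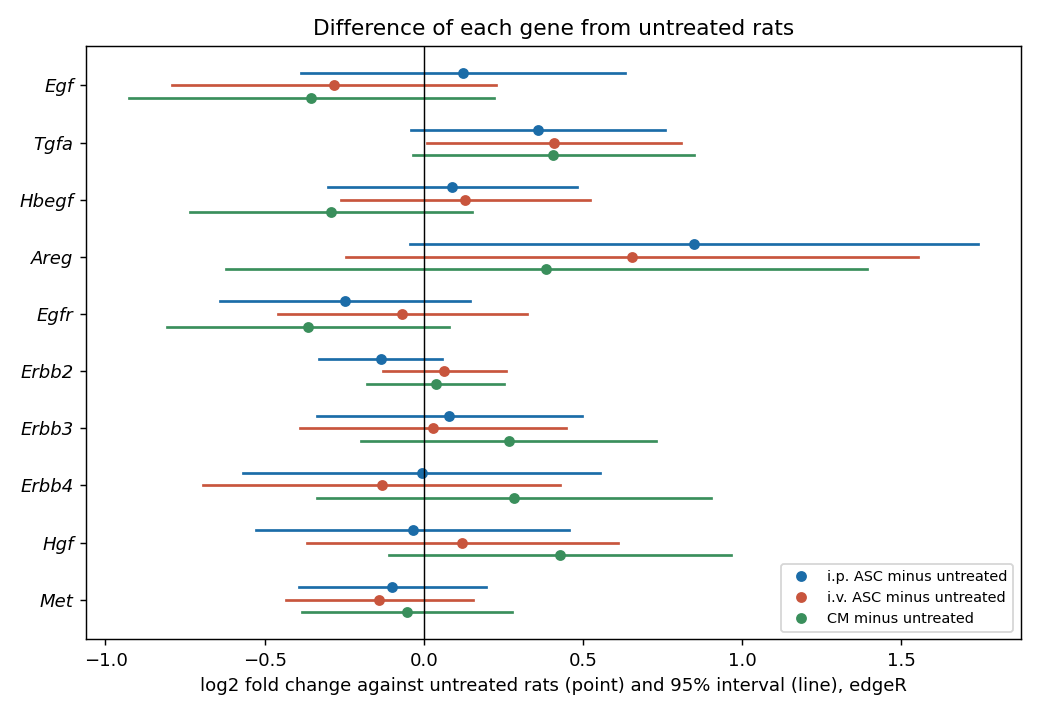
Log2 fold change of each gene against untreated rats (points) with its 95% interval (lines) from edgeR, for i.p. ASC, i.v. ASC and CM. All intervals but 1 span 0, the exception being Tgfa after i.v. ASC (0.01 to 0.81), whose adjusted p over all genes is 0.523; the widest intervals are those of Areg.

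None of the 5 other ligands and receptors of these families that were tested was called. Nrg1, a neuregulin and ligand of Erbb3 and Erbb4, was 11.7 ± 2.07 TPM (SD, n = 6) in untreated rats and 13.9 ± 2.69 (n = 4) after CM, with 0.36 on the log2 scale (SE 0.21, adjusted p = 0.732, edgeR). Btc, betacellulin, a ligand of Egfr and Erbb4, was 7.76 ± 2.00 TPM (n = 6) in untreated rats and 9.52 ± 3.31 (n = 6) after i.v. ASC, with a log2 fold change of 0.41 (0.29, adjusted p = 0.565). The neuregulins Nrg2 and Nrg4 were at 0.772 ± 0.284 and 1.25 ± 1.10 TPM over all 22 rats (SD, n = 22). Nrg4, at 1 to 24 counts per rat, was not tested. It was highest in i.v. ASC rats 3 and 9, at 4.365 and 4.392 TPM, and at most 1.83 TPM in any other rat. Ereg, epiregulin, was listed with 1 to 3 counts in 4 untreated rats and 1 i.p. ASC rat and at 0 in the other 17, and Epgn, epigen, with at most 6 counts in any rat, so neither was tested. Mst1, the HGF-like ligand, and its receptor Mst1r had log2 fold changes of 0.47 (0.45, adjusted p = 0.876) after CM and -0.24 (0.26, adjusted p = 0.827) after i.p. ASC. Their means over all rats were 1.42 ± 0.786 and 0.984 ± 0.324 TPM.

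With these further ligands and receptors counted in, 96 other genes of release, signalling and response were listed by role beside the 10, and 82 of them were tested. Of these, 0 were called by edgeR or DESeq2 in any of the 3 comparisons, and 3, 9 and 4 had an unadjusted p below 0.05, that is 3.66%, 11% and 4.88%, against 3.89%, 8.81% and 6.6% of all genes. Of the genes listed for release or activation of the ligands, 11 were tested. In the 3 comparisons 5, 6 and 4 of them had a log2 fold change above 0, as had 46.2%, 47.5% and 49.1% of all genes. Adam17, which cuts TGF-alpha and amphiregulin free, was 25.8 ± 2.97 TPM (SD, n = 6) in untreated rats and 21 ± 4.51 (n = 6) after i.v. ASC, -0.19 on the log2 scale (SE 0.08, adjusted p = 0.523). Plau, urokinase, was 617 ± 59.6 TPM (n = 6) against 811 ± 213 (n = 4) after CM, 0.48 (0.22, adjusted p = 0.711). These values did not pass over all genes. Of the inhibitors of HGF activation, Spint1 had a log2 fold change of -0.18 (0.08, adjusted p = 0.711) after CM and Spint2 of 0.11 (0.10, adjusted p = 0.612) after i.v. ASC.

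Of 13 adaptors and other receptor partners, 10, 10 and 8 had a log2 fold change below 0 after i.p. ASC, i.v. ASC and CM. Their medians were -0.09, -0.09 and -0.04. The medians of all genes were -0.01, -0.01 and -0.003. Gab2, a docking protein, was 9.62 ± 1.41 TPM (SD, n = 6) in untreated rats and 6.79 ± 1.78 (n = 6) after i.p. ASC, -0.42 on the log2 scale (SE 0.18, adjusted p = 0.771, edgeR). Frs2, another docking protein, had -0.18 (0.08, adjusted p = 0.523) after i.v. ASC. The 9 genes of the Ras-MAPK core and the 10 of the PI3K-Akt core had medians between -0.07 and 0.02. In these cores the smallest unadjusted p-values were those of Hras (0.26, standard error 0.11) and Map2k2 (0.19, 0.09) after i.v. ASC, both with an adjusted p of 0.523, and of Pik3r2 (-0.12, 0.07, adjusted p = 0.771) after i.p. ASC and Pik3cb (0.14, 0.12, adjusted p = 0.837) after CM.

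Negative regulators of the receptors and of MAPK numbered 16, of which 9, 14 and 11 had a log2 fold change below 0 after i.p. ASC, i.v. ASC and CM. Dusp5, a phosphatase that inactivates ERK in the nucleus, was 13 ± 2.10 TPM (SD, n = 6) in untreated rats and 20.2 ± 5.10 (n = 4) after CM, 0.72 on the log2 scale (SE 0.24, unadjusted p = 0.00667, adjusted p = 0.711, edgeR). Cblb, a ubiquitin ligase of receptors, had -0.38 (0.17, adjusted p = 0.771) after i.p. ASC. Of 16 genes that respond to growth factors, 11, 12 and 12 had a log2 fold change below 0, with medians of -0.08, -0.09 and -0.18. Fosb, an immediate early gene, was 4.21 ± 2.91 TPM (n = 6) in untreated rats and 1.57 ± 0.969 (n = 6) after i.v. ASC, -1.29 on the log2 scale (0.44, adjusted p = 0.523). Etv4, a transcription factor downstream of ERK, had -0.35 (0.14, adjusted p = 0.523) after i.v. ASC. None of these counts of direction was tested, and somewhat more genes lay below 0 than above it among all genes too, with 46.2%, 47.5% and 49.1% above.

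Whether the genes varied together from rat to rat was asked with the 45 pairs among them, on log2 CPM (the count scaled to the library total, with TMM factors and a prior count of 2) over all 22 rats. Each of the 10 genes was correlated with every other gene tested, which made 128615 relations, each tested by 100000 permutations of the rats and adjusted over all of them. Of these relations 12297 (9.56%) passed at an adjusted p below 0.05. Of the 45 pairs 4 passed, that is 8.89%, which is close to the share among all relations. The median r of the pairs was 0.126, with 27 above 0 and 18 below.

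Erbb4 and Met had r = 0.745 (permutation p = 0.00032, adjusted p = 0.00888) and a Spearman rho of 0.577 (permutation p = 0.0059). Without rats 6 (i.p. ASC) and 8 (i.v. ASC), the lowest in both genes, r was 0.36 (permutation p = 0.118, adjusted 0.364), so the call depended on those 2 rats. Leaving out the lowest rats also narrows the range of both genes. With any 1 rat left out r of Erbb4 and Met was at least 0.614. Tgfa and Erbb3 had r = 0.70 (permutation p = 0.00022, adjusted 0.00698) and rho = 0.598 (permutation p = 0.00424). It was 0.586 (permutation p = 0.00701) without i.p. ASC rat 5 and i.v. ASC rat 8, the rats farthest from the median of Tgfa, and 0.769 (adjusted p = 0.0169) when each group was centred on its mean. Erbb3 and Met had r = 0.688 (permutation p = 0.00049, adjusted 0.0117), rho = 0.596 (permutation p = 0.0042) and r = 0.544 (permutation p = 0.0125) without the same 2 rats. Within groups r was 0.72 but the adjusted p 0.0531, and without i.v. ASC rat 8 alone the adjusted p was 0.0554, so either ended the call. Hbegf and Met ran in opposite directions, with r = -0.616 (permutation p = 0.00274, adjusted 0.0351), rho = -0.372 (permutation p = 0.0893) and r = -0.405 (permutation p = 0.0779) without i.p. ASC rat 6 and i.v. ASC rat 10. Leaving out i.p. ASC rat 5 or 6 or i.v. ASC rat 8 or 10 alone ended that call, with adjusted p-values of 0.0716, 0.187, 0.0893 and 0.0535, and so did centring on the group means (r = -0.64, adjusted p = 0.0928). By Spearman's rho 0 of the 45 pairs passed (4.89% of all relations), with a smallest adjusted p of 0.0664 among these 4 pairs. As log2(TPM + 1) 7 pairs passed (12.8% of relations), after centring on the group means 3 (6.61%), as residuals on the proximal tubule marker mean 3 (3.63%), as residuals on the podocyte marker mean 7 (9.77%) and without i.p. ASC rat 6 and i.v. ASC rat 8 only 1 (8.19%), Areg with Erbb3, at r = 0.722 (adjusted p = 0.00929 by permutation).

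No ligand of Egfr among the 4 had a called relation with it, where 2.31% of all relations of Egfr were called. Egfr had r = 0.191 with Egf (permutation p = 0.391), -0.03 with Tgfa (0.885), 0.126 with Hbegf (0.577) and 0.296 with Areg (0.181). Hgf and Met had r = -0.01 (permutation p = 0.959, adjusted 0.982). Nrg1 had a called relation with a receptor that binds it, with r = 0.763 for Erbb3 (permutation p = 3e-05, adjusted 0.00209), rho = 0.805 and r = 0.743 within groups. Of all relations of Erbb3, 27.4% were called. With Erbb4, its other receptor, Nrg1 had r = 0.398 (permutation p = 0.0668, adjusted 0.238). Whether these correlations of Nrg1 differ was not tested. Among the ligands, Tgfa and Btc had r = 0.698 (permutation p = 0.00035, adjusted 0.00938), and Hgf and Mst1 had r = 0.603 (permutation p = 0.00288, adjusted 0.0362).

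**Figure D3:**
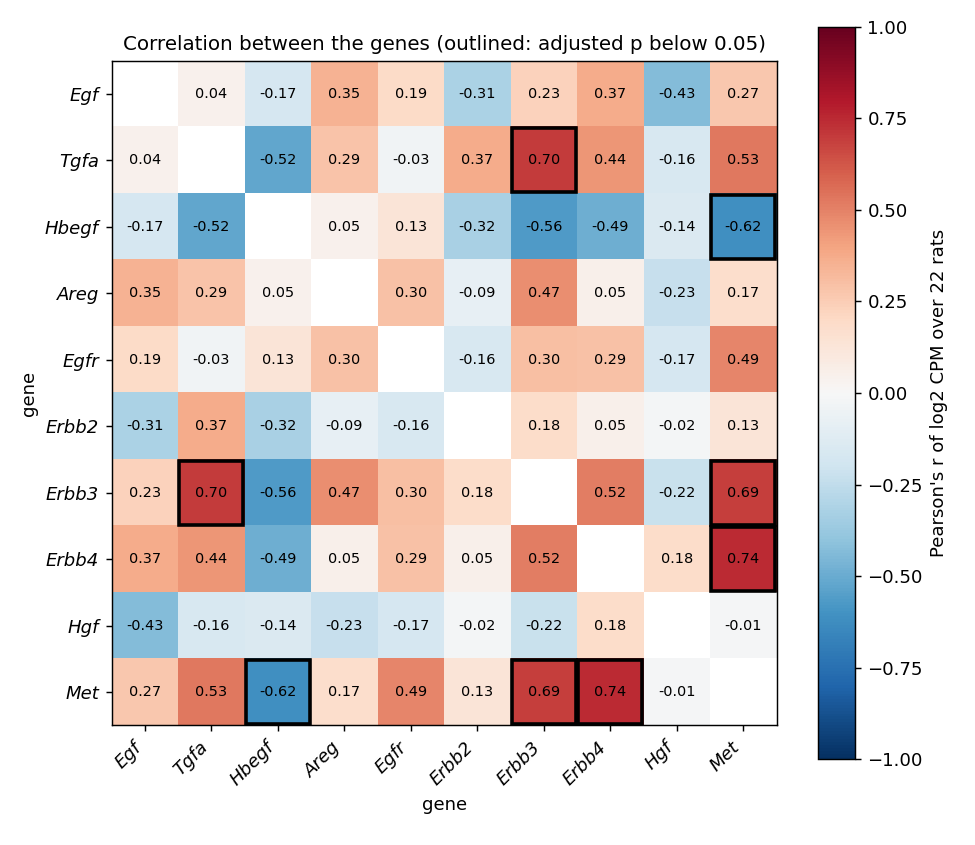
Pearson's r of log2 CPM over 22 rats for the 45 pairs of the 10 genes, with the 4 pairs at an adjusted p below 0.05 outlined. Erbb3, Erbb4 and Met have positive values with each other, from 0.515 to 0.745, and Hbegf has values from -0.488 to -0.616 with them; Egf, Areg, Egfr, Erbb2 and Hgf are in no outlined pair.

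The genes differed in how much of the transcriptome they followed. Erbb3 had 27.4% of its 12866 relations called and Tgfa 25.5%, then Erbb4 11.2%, Met 9.52%, Areg 7.60% and Hgf 5.13%. Hbegf (2.51%), Egf (2.38%), Egfr (2.31%) and Erbb2 (2.09%) had few. The 3 genes with the highest r to each were taken from all genes tested, with 1e-05 the smallest p that 100000 permutations can give. For Egf they were Fam81a (r = 0.905), Slc19a2, a thiamine transporter (0.812), and Slc6a17 (0.798). For Tgfa they were Pld1, a phospholipase D (0.894), Ace, the angiotensin-converting enzyme (0.889), and Tyro3, a receptor tyrosine kinase (0.888). For Erbb3 they were Hnf4g, a nuclear receptor of proximal tubule and gut (0.942), Aldh8a1 (0.933) and St6galnac3 (0.933). The relations of the closest genes had an adjusted p of at most 0.00547.

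For Hbegf the closest genes were Wdr4 (r = 0.773), Epha2, an ephrin receptor (0.766), and Ddx39a (0.764). Areg was closest to Spata22 (0.879), Tmem252 (0.868) and Slc22a6, an organic anion transporter of the proximal tubule (0.821). Slc22a6 is also a member of the proximal tubule marker list described below. Egfr was closest to Hif1an, the hydroxylase that inhibits HIF (0.89), Prkci (0.81) and Lin7c (0.805). Close to Erbb2 were Nqo1 (0.79) and Slc14a1, a urea transporter (0.761). Erbb4 was closest to Pdpk1, the kinase that activates Akt (0.89), Smcr8 (0.887) and Mob3b (0.881), and Met to Fam120a (0.906), Ganc (0.903) and Exoc1 (0.886). None of the 10 genes was among the 3 closest genes of another. Hgf was closest to Adra2a, an adrenergic receptor (0.805), Bcl11b, a transcription factor of T cells (0.799), and Igsf10 (0.792). By rank the relations of the closest genes of all 10 ran from rho = 0.509 to 0.92. Among the lower ones were those of Erbb2 with Slc14a1 (0.509) and Nqo1 (0.617), of Hbegf with Ddx39a (0.528) and Wdr4 (0.631) and of Erbb4 with Mob3b (0.686).

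Each gene was also set beside lists of cell type markers, since a piece of kidney holds a mix of cells. These correlations describe the same 22 libraries, and their part in the results above was not tested except by the covariates given. Erbb3 varied with the proximal tubule, and 8 of 12 markers had a called positive relation, where 27.4% of all its relations were called in either direction. Lrp2, megalin, had r = 0.902 with Erbb3 (adjusted p = 0.00121 by permutation of rats), rho = 0.915 and 0.925 within groups. The mean of the list had r = 0.849 with Erbb3, and 0.835 without the 2 rats farthest from its median. Among other markers, 6 of 9 of leukocytes and 6 of 10 of fibroblasts had called negative relations with Erbb3. Cd74, the most abundant leukocyte marker, had r = -0.653 with it.

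Areg followed the proximal tubule too, with 7 of 12 markers called positive (7.60% of all its relations were called) and r = 0.753 with the list mean. Its r with Slc34a1 was 0.753 (adjusted p = 0.00313 by permutation of rats). Once the proximal tubule mean was regressed out of each gene, Areg and Erbb3, which had r = 0.468 (adjusted p = 0.146) before, had r = -0.496 (adjusted p = 0.175). Tgfa and Erbb3 then had r = 0.505 (adjusted p = 0.157), and Erbb3 and Met had r = 0.739 (adjusted p = 0.0114).

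Tgfa had called negative relations with 7 of 7 podocyte markers, 6 of 7 of the distal convoluted tubule and 7 of 8 of endothelium, where 25.5% of all its relations were called. Slc12a3, the thiazide-sensitive cotransporter of the distal convoluted tubule, had r = -0.694 with it (adjusted p = 0.00698 by permutation of rats). Of the thick ascending limb, Slc12a1, the furosemide-sensitive cotransporter, had r = 0.773 and Umod r = 0.705 with Tgfa. The mean of the podocyte list had r = -0.727 with Tgfa, and r = -0.461 over the 17 rats left without the 5 that stood apart in these markers. Tgfa also had r = 0.853 with Plau and -0.769 with Adam17 (adjusted p = 0.00121 each), the protease that releases it.

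Hgf varied with stroma and leukocytes. Of the fibroblast markers 6 of 10 and of the leukocyte markers 6 of 9 had called positive relations with it (5.13% of all its relations were called), Dcn, decorin, at r = 0.601 (adjusted p = 0.0385 by permutation of rats) and Cd74 at r = 0.574 (adjusted p = 0.0496). Pdgfra, a receptor of fibroblasts, had the highest r of these markers with Hgf, at 0.766. Of the markers of injured tubule, 4 of 11 had called negative relations with Erbb4 (11.2% of all its relations were called). The mean of that list had r = -0.583 with Erbb4. Spp1, osteopontin, the most abundant of these markers, had r = -0.729 with it (adjusted p = 0.00524 by permutation of rats). Erbb2 had 4 of 9 principal cell markers called positive (2.09% of all its relations were called), but the mean of that list had r = 0.59 and a rho of 0.267 with it, and r = 0.18 without i.v. ASC rats 9 and 13, so this relation rested on those 2 rats. Of the urothelial markers only Psca, 1 of 7, was called with Erbb2 (r = 0.721, adjusted p = 0.0115, rho = 0.552), and i.v. ASC rats 3, 9 and 13 stood apart in these markers, summed at 373, 638 and 245 TPM against at most 39.9 TPM in any other rat. Few relations of Egf, Egfr and Hbegf were called with any gene (2.38%, 2.31% and 2.51%), so a count of 0 among markers is close to that share. Egf had called relations with 0 of 8 markers of the thick ascending limb and 0 of 7 of the distal convoluted tubule, the segments known to make it, at r = 0.39 with Umod, 0.181 with Slc12a1 and 0.367 with Slc12a3 (adjusted p = 0.249, 0.644 and 0.289). Called negative relations with Egf were those of 2 of 10 fibroblast markers, 2 of 9 leukocyte markers, 1 of 11 markers of injured tubule and 1 of 10 of cell division, whose list means had r = -0.446, -0.499, -0.526 and -0.555 with it. Of all 12866 relations of Egf, 182 were called negative and 2.38% were called in either direction. Egfr had 0 called markers in the 14 lists, and Hbegf 2 of 11 of injured tubule, both positive, and 0 in the other lists.

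**Figure D4:**
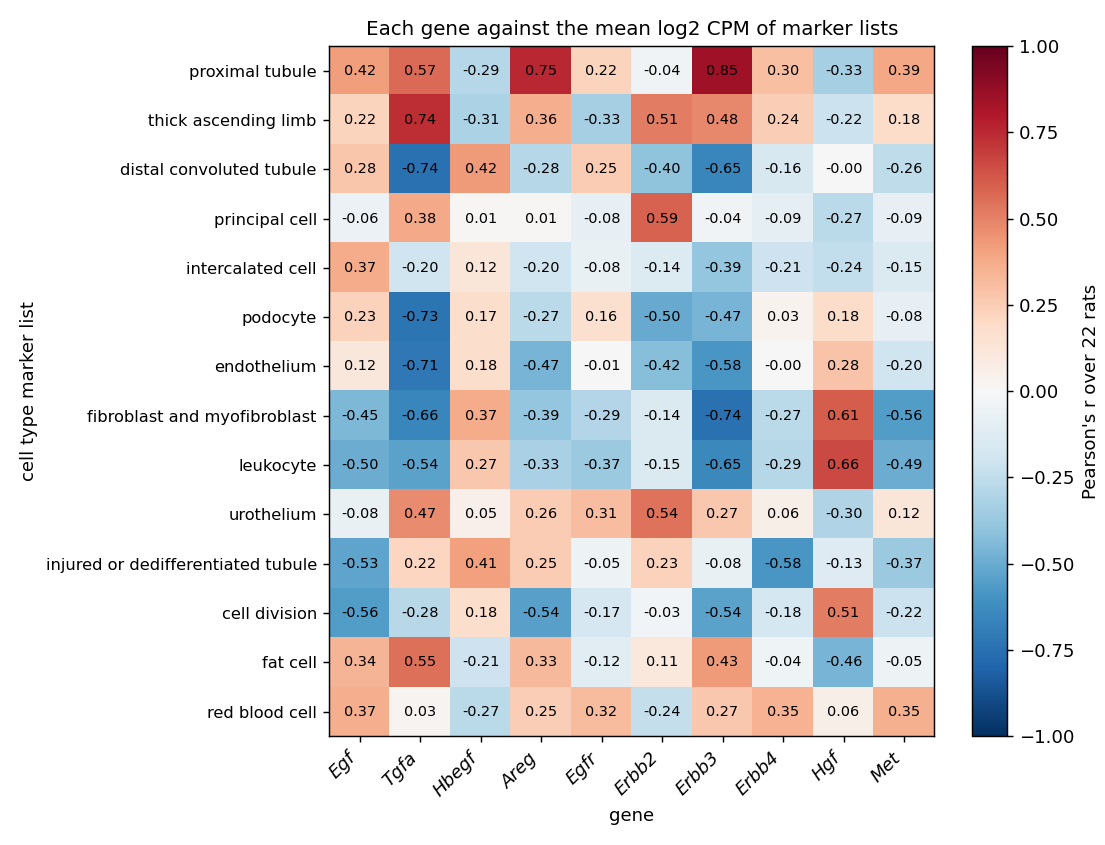
Pearson's r over 22 rats of each gene's log2 CPM (columns) with the mean log2 CPM of 14 marker lists (rows). Erbb3 and Areg are highest with the proximal tubule (0.849 and 0.753), Tgfa is lowest with the distal convoluted tubule (-0.743) and Hgf is highest with leukocytes (0.663).

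**Figure D5:**
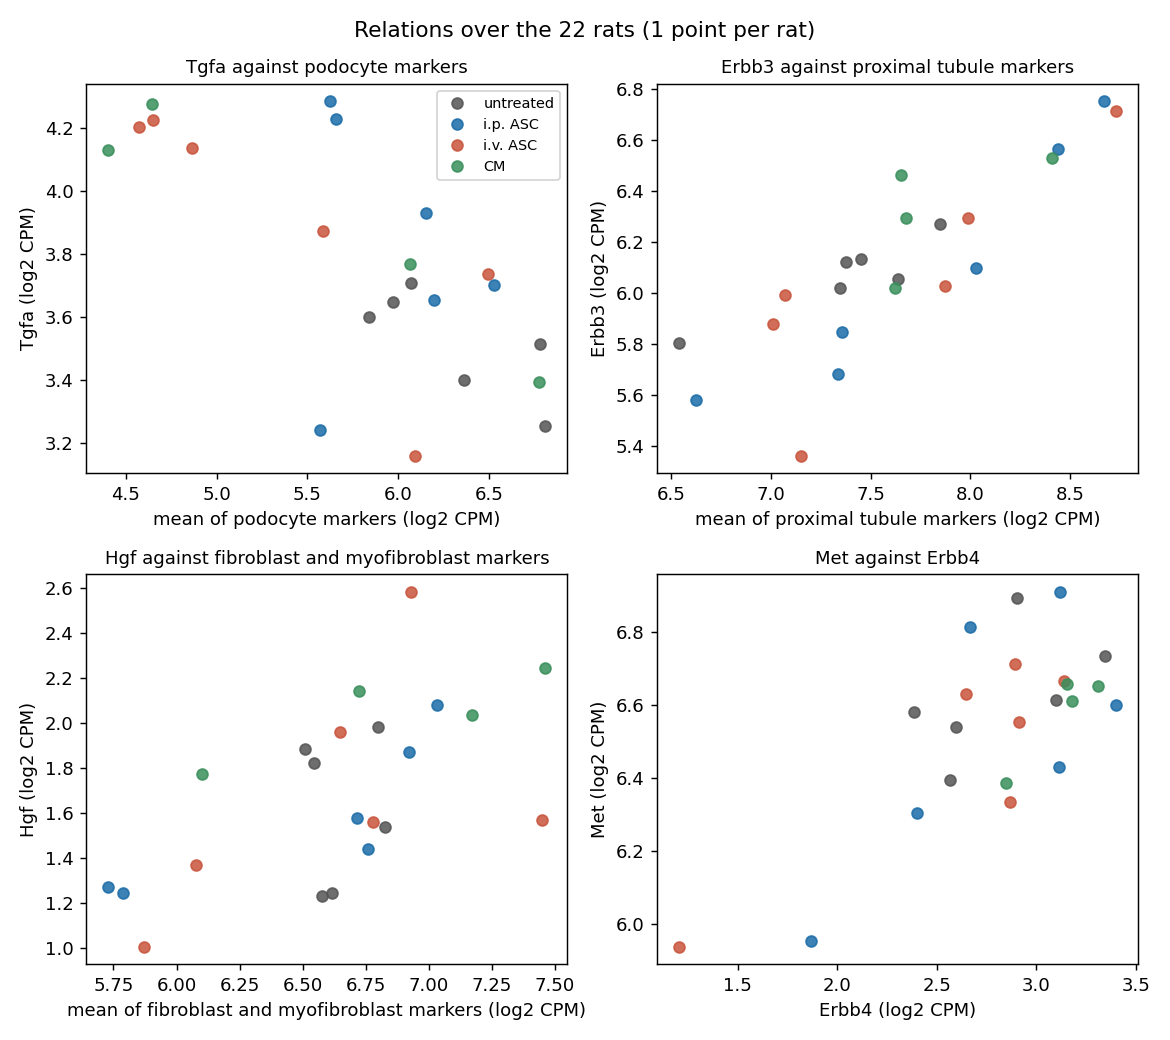
Log2 CPM of Tgfa, Erbb3 and Hgf against the mean log2 CPM of podocyte, proximal tubule and fibroblast markers, and of Met against Erbb4, with 1 point per rat coloured by group. The 5 rats with the lowest podocyte markers are apart from the other 17, and rats 6 (i.p. ASC) and 8 (i.v. ASC) are apart in the plot of Met against Erbb4.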

How the data were processed

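Kidney RNA of 22 rats was analysed (6 untreated, 6 i.p. ASC, 6 i.v. ASC, 4 CM), with groups from the sample labels. Total RNA was read on a BGISEQ-500. Deposited were an estimated count per rat Entrez gene, not normalized by the authors, and TPM values that the authors made by scaling to length and total, which sum to 959754 to 968550 per rat. The submitters' processing notes name Trim Galore 0.6.4, kallisto 0.4.6 and the build rn6, without their roles. How reads shared by paralogs or overlapping genes were split, and whether strand was used, is not given in the sources used here. Symbols came from RefSeq (GRCr8, names only) and matched 17179 of 17334 genes. Of the pathway and marker symbols, 13 were not matched and were not analysed here.

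Counts were rounded, since 14.1% were not whole. The main test was the quasi-likelihood test of edgeR 4.0.16 (R 4.3.3) with TMM factors and filterByExpr, in a single fit of the 4 groups, with Benjamini-Hochberg adjustment over 12867 genes and a threshold of 0.05. Standard errors are the log2 fold change divided by the square root of F. Correlations used log2 CPM and 100000 two-sided permutations of the rats (numpy 2.4.6), adjusted over 128615 relations. On simulated counts with 200 genes changed 2-fold in the i.v. ASC comparison, edgeR recovered 191 and DESeq2 186, with 9 and 25 of the other genes called, of 12837. The changed genes all had counts above a limit that Areg and Hgf, at means of 24.1 and 42.4 counts, did not reach. Every gene was simulated with the same spread, below that of Areg, Erbb4 and Egf (biological coefficients of variation of 47.2%, 31.2% and 29.9%). The recovery therefore does not give the power for the 10 genes, none of which had a 2-fold estimate. Alternatives were RLE size factors, DESeq2 1.42.0, other filters, only the 2 groups compared, limma 3.58.1 on log2(TPM + 1) and log2(TPM + 0.1), 1 surrogate variable (sva 3.50.0), marker means as covariates and the omission of rats. Named were all 10 genes, the other ligands and receptors of their families, in each other pathway list the 2 genes with the smallest unadjusted p, the 3 genes closest to each of the 10 and the leading markers. A few results under this rule are not reported here. Pdgfra was named after its values were seen. The genes and lists were chosen with earlier results of these data known.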

Additional observations from a re-analysis of the deposited data

Results flagged for a closer look

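In groups of 4 or 6 rats, a rat was singled out on the log2 CPM scale where its gap to the nearest rat, divided by the range of the group, passed Dixon's 95% critical value. Of 40 groups (10 genes in 4 groups) 3 had such a rat, and chance flags about 1 in 20 groups. Erbb2 was at 7.19 in CM rat 11, above the other CM rats. Met was at 6.39 in CM rat 21, below the other CM rats. Erbb4 was at 1.21 in i.v. ASC rat 8, which also had the lowest Erbb3 and Met values of all rats on the TPM scale.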

How the results depend on the processing

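No log2 fold change of the 10 genes passed the threshold under any of 647 recomputed values, and the smallest adjusted p among them was 0.28. A sign changed in 60 of them, for values of at most 0.267 in size, and the cause was not tested except where a setting itself shifts all genes. The median of all genes on the log2(TPM + 1) scale was shifted by -0.09, -0.11 and -0.07 (i.p. ASC, i.v. ASC, CM) against the counts. On that scale and with a pseudocount of 0.1 the changed values after i.p. ASC were -0.0456 and -0.0521 for Hbegf and -0.0659 and -0.071 for Erbb3. After i.v. ASC they were -0.0142 and -0.0163 for Hbegf, -0.0584 and -0.0603 for Erbb2, -0.125 and -0.133 for Erbb3 and -0.0146 and -0.0473 for Hgf, and after CM -0.0317 and -0.0326 for Erbb2. Erbb4 after i.p. ASC was 0.00585 with DESeq2, 0.0059 with RLE size factors and 0.00786 with only the 2 groups. With 1 surrogate variable Erbb3 was -0.216, -0.295 and -0.00535 in the 3 comparisons, Hgf 0.13 after i.p. ASC and Erbb2 -0.00515 after CM. With the proximal tubule mean Erbb3 was -0.172 and -0.148 after i.p. and i.v. ASC and Hgf 0.0787 after i.p. ASC. With the podocyte mean, added after seeing the data, Erbb3 was -0.031 after i.p. ASC and -0.255 after i.v. ASC, Erbb2 -0.0542 after i.v. ASC and -0.0642 after CM, and Erbb4 0.0229 and Hgf 0.0437 after i.p. ASC. Without i.v. ASC rats 3, 9 and 13, also added later, Erbb2 was -0.144 and Erbb3 -0.285 after i.v. ASC.

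When 1 rat at a time was left out, values ran from -0.179 to 0.0505 (Egfr), -0.0121 to 0.123 (Erbb2), -0.132 to 0.147 (Erbb3), -0.231 to 0.0492 (Erbb4) and -0.127 to 0.238 (Hgf) after i.v. ASC. After i.p. ASC they ran from -0.0699 to 0.183 (Erbb3), -0.148 to 0.131 (Erbb4), -0.106 to 0.197 (Hbegf) and -0.155 to 0.0477 (Hgf), and after CM from -0.0376 to 0.0715 (Erbb2) and -0.0939 to 0.00648 (Met). The count of all genes called, 0 by edgeR, was 22 after i.v. ASC and 5 after CM by DESeq2, 1 after CM with only the 2 groups, and 0 to 14 after i.v. ASC with 1 rat left out (11 without i.v. ASC rat 8, 14 without rat 14). The 4 called pairs became 0 by Spearman's rho, 7 on log2(TPM + 1), 7 as residuals on the podocyte mean, 1 without i.p. ASC rat 6 and i.v. ASC rat 8 (both added later), and 3 to 5 with 1 rat left out. Areg and Erbb3 had r = -0.496 as residuals on the proximal tubule mean. Group means of the 10 genes were above the untreated mean in 12 of 30 cases in TPM and in 17 in CPM. No paired analysis was possible because the groups share no animal number. Counting alone would give coefficients of variation of 20.4% for Areg and 15.4% for Hgf, against 53.4% and 29.8% between rats in CPM.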
